A study of Rattus norvegicus and synthetic construct with 4 samples.

Results

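Promoter elements of human proteasome subunit genes were examined in a STARR-seq library of human islet sequences. In this reporter assay a plasmid carries a candidate regulatory sequence within its own transcript. RNA per plasmid DNA is taken as a measure of how strongly the sequence drives transcription from the plasmid. Effects of the sequence on the RNA that carries it were not separated. The islet elements, 198 bp each, had been mapped by CAGE, a method that reads the 5' ends of transcripts. The library was electroporated into INS1 832/13, a rat insulinoma line that stands in for the beta cell, the insulin producer of the islet. There were 3 INS1 832/13 RNA libraries, each from a separate electroporation of 10 ug of plasmid and taken after 24 h, and 1 library of the STARR-seq plasmid input DNA. The cells were rat and all elements human, and every RNA library came from the same plasmid pool and cell line.

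The proteasome elements were those of the count table whose midpoint lay within 2 kb of the start site of 1 of 31 listed subunit genes. Start sites were listed in steps of 1 kb in hg19, the build of all positions here. Among elements of the count table this rule used position alone, but the table held only elements with RNA counts. Genes and start sites were also chosen with earlier results of these data known. The rule found 21 elements on 11 chromosomes, of 3378 elements in the table. They belonged to 20 genes, with 2 elements at PSMB1 and 1 at each of the others. For PSMC5, 1 element was paired with 2 barcodes but was not in the count table. The remaining 10 genes (PSMA1, PSMA7, PSMC1, PSMD1, PSMD2, PSMD3, PSMD6, PSMD8, PSMD12 and PSMD13) had no paired element within this distance and were not analysed here. The element nearest to the limit inside it was the second PSMB1 element, 1468 bp from the listed position. Just outside it, an element on chromosome 7 from 102985134 to 102985331 lay 2768 bp from the listed position of PSMC2 and gave RNA/DNA of 0.659 ± 0.320 times the centre of the library (SD, n = 3).

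The proteasome is the protease that degrades ubiquitin-tagged proteins in the cytosol and nucleus of every cell. Its core particle is a barrel of PSMA subunits, which form the outer alpha rings, and PSMB subunits, which form the inner beta rings and hold the active sites. A regulatory particle caps the barrel: its ring of PSMC ATPases unfolds substrates and threads them into the core, and its PSMD subunits mostly bind, position and deubiquitinate them. Since subunits are needed in fixed proportions, the genes of the complex are expressed together in most tissues, and beta cells, which make and fold large amounts of proinsulin, use this route to dispose of misfolded protein.

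Each plasmid carried a random barcode of 16 bases, and the counts were made on these barcodes. The 21 elements had 345 counted barcodes, with a median of 8 and a range from 2 to 49 per element, beside a median of 6 over all elements. No difference between the elements with the highest and the lowest RNA/DNA of the 21 was tested, and the lowest rests on few counts. Their barcodes are shown as the plasmids behind each value and are not replicates. For the PSMD11 element, in order of their summed RNA counts, they were:
PSMD11 barcode 1: tgggcttgcgagaatc
PSMD11 barcode 2: ttttacaaaatggcac
PSMD11 barcode 3: actttatttaattttc
PSMD11 barcode 4: ctctcatatttcgatc
PSMD11 barcode 5: gttatgcgtcagcaac
PSMD11 barcode 6: gcgttttcagtaattg
PSMD11 barcode 7: aacgcccgcccgtcca
For the PSMC3 element they were:
PSMC3 barcode 1: tttgcagcgtcgtggc
PSMC3 barcode 2: cattggccccttagtg
PSMC3 barcode 3: ttcgaagtcaaaggac
PSMC3 barcode 4: gtagtggatagggtac

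The RNA libraries held 211117, 197554 and 218571 counts and the plasmid DNA library held 1079728. Of these, the proteasome elements held 3287, 2988 and 3095 RNA counts and 10516 DNA counts, which were 1.56, 1.51 and 1.42% of the RNA libraries and 0.974% of the DNA library. Ratios are given as RNA/DNA relative to the centre of the library that TMM normalization sets, and not to a control sequence. A barcode was in the table only with at least 10 DNA counts and at least 1 RNA count, so plasmids that gave no RNA were not analysed here. SDs are over the 3 RNA libraries against the same 1 DNA library, whose own error they leave out. The edgeR p-values use the spread between the RNA libraries, moderated by an estimate of spread shared across all elements of the table. The DNA library's own spread was not measured and is taken to follow the same estimate.

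Of the 21 proteasome elements, 16 had a log2 RNA/DNA above 0, the centre of the library, and a minority passed the test. Scaled by library totals and not by TMM, 11 of the 21 were above 0, as were 29.0% of all elements (48.8% with TMM). By edgeR's quasi-likelihood test with Benjamini-Hochberg adjustment at 0.05, 5 of the 21 (23.8%) were above the centre, where 8.88% of all 3378 elements were. These were the elements at PSMD11, PSMC4, PSMB6, PSMD7 and PSMC2. All 5 were above the centre in 3 of 3 RNA libraries. The 21 elements had a median log2 RNA/DNA of 1.19 (2.28-fold), and the median over all elements was -0.03. With library totals the median of the 21 was 0.46, beside -0.77 for all. By the same test 0 of the 21 were below the centre, as was no element of the table (0%). With library totals edgeR called 50 elements of the table below, and 0 of the 21. At an unadjusted p under 0.05, edgeR placed 8 of the 21 above and 0 below, beside 457 above and 26 below among all elements. Below the centre, limma-voom called 136 elements and limma with barcodes weighted equally 89, and in both cases 0 of the 21. DESeq2 called 0 below, but gave no adjusted p for 1572 of the 3378 elements, 4 of the 21 among them.

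The 5 called elements held 61.8% of the RNA counts of the 21 and 29.8% of their DNA counts. Of the other 16, the median log2 RNA/DNA was 0.55, and that of all elements that were not called was -0.17. In all, 13 of the 21 (61.9%) were above the centre in each of the 3 RNA libraries, as were 25.8% of all elements. Of the rest, 1 was below it in each library, and 7 fell on both sides. These comparisons with the table are descriptions, because the elements share their plasmid pool and were not drawn at random.

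Among the PSMD subunits of the regulatory particle, 2 of 4 elements were called. PSMD11 is a scaffold subunit of the lid that holds the cap onto the core. Its element, on chromosome 17 from 30771426 to 30771623, had 343, 213 and 304 RNA counts and 208 DNA counts over 7 barcodes. RNA/DNA was 14.1, 9.18 and 12.2 times the centre. It was the highest of the 21 and ranked 24 among all elements, at a log2 ratio of 3.56 ± 0.44 (SE) with an edgeR adjusted p of 4.38e-10.

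Each of the 7 PSMD11 barcodes listed above gave RNA in all 3 libraries. Summed over libraries, barcode 1 had 256 RNA counts and 43 DNA counts, and barcode 7, the lowest, had 41 RNA counts and 25 DNA counts. Per barcode, RNA/DNA ranged from 4.71 to 19.5 times the centre. Over these 7 counted barcodes, of 10 paired, the RNA of this element was spread, with 29.8% of it on the first barcode. The paired barcodes outside the count table were not analysed here.

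PSMD7, a lid subunit that pairs with the deubiquitinase PSMD14, had its element on chromosome 16 from 74330637 to 74330834. It had 238, 299 and 196 RNA counts and 375 DNA counts over 14 barcodes. RNA/DNA was 5.44, 7.14 and 4.35 times the centre, with a log2 ratio of 2.50 ± 0.43 (SE) and an edgeR adjusted p of 4.81e-06. Of its 24 paired barcodes 14 were counted. Of these, 13 were above the centre and 12 gave RNA in all 3 libraries.

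The element of PSMD14, the direct partner of PSMD7, was not called. This element, on chromosome 2 from 162164886 to 162165083, also had 14 barcodes, with 41, 53 and 12 RNA counts and 451 DNA counts. RNA/DNA was 0.779, 1.05 and 0.222 times the centre. The highest of these values lay below the lowest of PSMD7, 4.35. The log2 ratio was -0.55 ± 0.90 (SE; edgeR adjusted p = 0.953), and 3 of the 14 counted barcodes (23 paired) were above the centre. PSMD4, a receptor for ubiquitin chains with its element on chromosome 1 from 151227139 to 151227336, had 2 barcodes and a ratio of 3.06 ± 1.12 times (SD, n = 3), which was not called (edgeR adjusted p = 0.890).

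Among the PSMC ATPases, 2 of 4 elements were called, and the lowest of the 21 was also in this group. The PSMC2 element, on chromosome 7 from 102988029 to 102988226, was 1 of the 2 with the most barcodes, 49. It had 629, 471 and 689 RNA counts and 1425 DNA counts. RNA/DNA was 3.78, 2.96 and 4.03 times the centre, a log2 ratio of 1.84 ± 0.29 (SE) with an edgeR adjusted p of 3.93e-07. Above the centre were 35 of its 49 counted barcodes (76 paired). The element just outside the 2 kb limit of PSMC2 ranged from 0.306 to 0.929 times over 21 barcodes, below every value of the element at the start site. Which gene this outer element belongs to was not assigned here.

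The PSMC4 element, on chromosome 19 from 40476984 to 40477181, had 89, 138 and 61 RNA counts and 109 DNA counts over 4 barcodes. RNA/DNA was 6.99, 11.3 and 4.66 times the centre, with a log2 ratio of 2.93 ± 0.74 (SE) and an edgeR adjusted p of 0.00245. All 4 counted barcodes, of 7 paired, were above the centre, between 3.35 and 13.9 times. In RNA library 2, 86 of the 138 counts came from 1 barcode, and without that library the call was lost (edgeR adjusted p = 0.191, log2 ratio 2.54). It was also lost with library totals (0.0643) and with every barcode's RNA count of 4 or less taken as 0 (0.247). With the top barcode of each element left out it was called, with an edgeR adjusted p of 0.0207.

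The PSMC3 element, on chromosome 11 from 47447694 to 47447891, had 0, 4 and 5 RNA counts and 87 DNA counts over the 4 barcodes listed above. RNA/DNA was 0, 0.412 and 0.479 times the centre. A count of 0 in the first library allows up to 0.295 times, taking 3 counts as the limit, which covers counting error only. Each of the 4 barcodes gave RNA in only 1 of 3 libraries. With so few counts the log2 ratio was -1.74 ± 1.72 (SE; edgeR adjusted p = 0.846), so a difference from the centre was not detectable at this depth. The PSMC6 element, on chromosome 14 from 53173829 to 53174026, had 2 barcodes with 1, 7 and 12 RNA counts and 37 DNA counts, and its ratio of 1.54 ± 1.24 times (SD, n = 3) was not called.

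Among the PSMB subunits, 1 of 8 elements was called. PSMB5, PSMB6 and PSMB7 are the subunits that carry the protease sites, with chymotrypsin-like, caspase-like and trypsin-like specificity in that order. The PSMB6 element, on chromosome 17 from 4699397 to 4699594, had 771, 756 and 598 RNA counts and 1014 DNA counts over 31 barcodes. RNA/DNA was 6.51, 6.68 and 4.91 times the centre. Its log2 ratio of 2.59 ± 0.29 (SE) had the lowest edgeR adjusted p of the 21, 1.08e-11. In 26 of the 31 counted barcodes (42 paired) the ratio was above the centre, and 27 gave RNA in all 3 libraries.

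The PSMB5 element was not called. It lay on chromosome 14 from 23503981 to 23504178 and had 84, 151 and 141 RNA counts and 1289 DNA counts over 38 barcodes. RNA/DNA was 0.558, 1.05 and 0.911 times the centre, all below the lowest PSMB6 value of 4.91. The log2 ratio was -0.25 ± 0.44 (SE; edgeR adjusted p = 0.953), and 11 of the 38 counted barcodes (99 paired) were above the centre. The PSMB7 element, on chromosome 9 from 127177609 to 127177806, rested on 2 barcodes with 1, 2 and 16 RNA counts and 89 DNA counts, of which 18 of the 19 RNA counts were on 1 barcode. Its ratio was 0.598 ± 0.780 times the centre (SD, n = 3). The elements of the genes for the protease sites thus included 1 called element, 1 element with many barcodes that was not called and 1 with too few counts to place.

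The structural PSMB subunits were not called. PSMB1 had 2 elements, which did not overlap and were 919 bp apart. The first, on chromosome 6 from 170862252 to 170862449, had 130, 115 and 165 RNA counts and 847 DNA counts over 29 barcodes and reached 1.31, 1.22 and 1.62 times the centre. The second, from 170863369 to 170863566, had 35, 18 and 45 RNA counts and 121 DNA counts over 7 barcodes and reached 2.48, 1.33 and 3.10 times. The ranges of the pair overlapped, and neither was called (edgeR adjusted p = 0.840 and 0.862). In the human genome PSMB1 lies head to head with TBP, the gene of the TATA-binding protein, and which start site the second element belongs to was not assigned here.

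The PSMB3 element, on chromosome 17 from 36908920 to 36909117, had 63, 155 and 65 RNA counts and 605 DNA counts over 19 barcodes. RNA/DNA was 0.892, 2.30 and 0.895 times the centre, so that RNA library 2 alone placed it above. The PSMB4 element, on chromosome 1 from 151371969 to 151372166, had 18, 21 and 78 RNA counts and 454 DNA counts over 11 barcodes. RNA/DNA was 0.340, 0.414 and 1.43 times the centre, with library 3 alone above. The PSMB2 element, on chromosome 1 from 36107003 to 36107200, had 4 barcodes and 2.29 ± 0.855 times (SD, n = 3). The edgeR adjusted p was between 0.834 and 0.964 for these 3 elements.

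Among the PSMA subunits, all 5 elements had a log2 ratio above 0 with TMM, though PSMA5 was at -0.51 with library totals. By edgeR 0 of 5 were called, and 3 had an unadjusted p under 0.05. DESeq2 called PSMA3 and PSMA6, in a fit that called 7 of the 21 and 419 of the 3378 elements (12.4%). That share counts 1572 elements, 4 of the 21 among them, that had no adjusted p in DESeq2 and could not be called. limma-voom called PSMA2, PSMA3, PSMA4 and PSMA6, in a fit that called 9 of the 21 and 15.1% of all elements. The PSMA6 element, on chromosome 14 from 35761493 to 35761690, came closest. It had 127, 70 and 75 RNA counts and 190 DNA counts over 8 barcodes, which gave 5.73, 3.30 and 3.29 times the centre. Its log2 ratio of 2.04 ± 0.70 (SE) had an edgeR adjusted p of 0.0531. The adjusted p was 0.0389 with DESeq2 size factors in edgeR and 0.00593 with DESeq2, and PSMA6 was called in 4 of 12 settings.

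PSMA4 and PSMA3 had ratios of like size on fewer counts. The PSMA4 element, on chromosome 15 from 78832690 to 78832887, had 53, 23 and 94 RNA counts and 118 DNA counts over 6 barcodes. RNA/DNA was 3.85, 1.75 and 6.63 times the centre (edgeR adjusted p = 0.307). The PSMA3 element, on chromosome 14 from 58711491 to 58711688, had 85, 37 and 37 RNA counts and 71 DNA counts over 4 barcodes, and RNA/DNA of 6.42 ± 3.32 times (SD, n = 3; edgeR adjusted p = 0.135). All 4 counted PSMA3 barcodes, of 8 paired, were above the centre. Library 1 placed PSMA3 at 10.3 times the centre and libraries 2 and 3 placed it at 4.67 and 4.34 times.

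PSMA2 and PSMA5 were measured on many plasmids and were not called by edgeR. The PSMA2 element, on chromosome 7 from 42971666 to 42971863, had 49 barcodes with 292, 240 and 333 RNA counts and 1582 DNA counts, and reached 1.58, 1.36 and 1.75 times. Its log2 ratio was 0.65 ± 0.33 (SE; edgeR adjusted p = 0.383). The PSMA5 element, on chromosome 1 from 109968936 to 109969133, had 214, 161 and 135 RNA counts and 1257 DNA counts over 41 barcodes and reached 1.46, 1.15 and 0.894 times. PSMA2 and PSMC2 had 49 barcodes each, and the lowest of the 3 PSMC2 ratios, 2.96, was above the highest of PSMA2, 1.75.

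Set side by side, the parts of the complex did not form separate ranges. The median log2 RNA/DNA was 2.03 for the 5 PSMA elements, 0.46 for the 8 PSMB elements, 1.23 for the 4 PSMC elements and 2.05 for the 4 PSMD elements. Within the groups the log2 ratios ran from 0.22 to 2.68 for PSMA, from -0.73 to 2.59 for PSMB, from -1.74 to 2.93 for PSMC and from -0.55 to 3.56 for PSMD. With all counts of a group pooled, RNA/DNA was 1.76 ± 0.287 times the centre for PSMA, 2.23 ± 0.210 for PSMB, 3.64 ± 0.259 for PSMC and 4.65 ± 0.559 for PSMD (SD, n = 3). Pooled over all 21 elements it was 2.56 ± 0.114 times. Pooled over all 3378 elements it was 1.67 ± 0.0243 times. That value and its SD are set by the TMM factors of the libraries alone and do not measure activity. The pooled and median orders of the groups differ, since the pooled value follows the elements with the most plasmid. Differences between the groups were not tested, because genes of 1 group are not replicates of it.

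Elements differed in how far their RNA libraries spread. The median SD of the log2 ratio was 0.682 for the 7 proteasome elements with 2 to 4 barcodes and 0.538 for the 4 with 5 to 9. It was 0.945 for the 4 with 10 to 19 and 0.240 for the 6 with at least 20. Over all elements of the table the same classes had 1.33, 0.879, 0.560 and 0.347. The proteasome elements thus spread more than the table in the class of 10 to 19 and less in the others. Of the 6 with at least 20 barcodes, 2 (33.3%) were called, beside 22.0% of the 423 elements of the table with as many. Of the 14 with at least 5 barcodes 4 were called (28.6%), beside 11.7% of 2223. Of the 7 with 2 to 4 barcodes 1 was called (14.3%), beside 3.38% of 1155. Because every barcode in the table had an RNA count, the number of barcodes itself depends in part on activity. Of the barcodes paired with the 21 elements, 51.2% of 674 were counted, and of all paired barcodes 40.8% of 86107 were.

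Detection of single barcodes was counted as well. Every counted barcode had at least 1 RNA count in some library, so barcodes with no RNA are missing from these shares. The shares and their intervals hold for counted barcodes only. Of the 345 proteasome barcodes, RNA libraries 1, 2 and 3 detected 71.6% (exact 95% interval 66.5 to 76.3%), 75.1% (70.2 to 79.5%) and 77.7% (72.9 to 82.0%), and of all 35153 barcodes 62.0, 65.1 and 67.6%. The shares with 5 or more RNA counts were 33.6, 35.4 and 35.9% of proteasome barcodes and 22.7, 22.1 and 23.4% of all. These intervals take barcodes as independent and cover counting error only, and PCR reads are not independent molecules. Barcodes of 1 element share its sequence.

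The RNA libraries were also compared with each other. On the log2 scale, Pearson's r was 0.873 between libraries 1 and 2, 0.709 between 1 and 3 and 0.667 between 2 and 3 over the 21 elements, and 0.522, 0.530 and 0.525 over all elements. These are correlations across elements, which share 1 DNA library, and no p is given. Between libraries, the SD of the log2 ratio had a median of 0.590 for proteasome elements and 0.810 for all. Among elements with 10 to 19 barcodes this order was reversed, as given above.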

How the data were processed

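The authors deposited a table of raw counts per barcode in the DNA and the 3 RNA libraries, per the file headers, and a table pairing barcodes with elements. The counts were filtered before deposit, per the file name. The sources used here give neither this filter nor the read trimming nor any molecular identifier. Positions are in hg19, per the submitters' processing notes.

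Barcode counts were added up for every element. All 3378 elements were fitted with edgeR 4.0.16 (R 4.3.3): TMM normalization, a quasi-likelihood test of RNA against DNA, and Benjamini-Hochberg adjustment at 0.05. The SE is the absolute log2 ratio over the square root of F. Per-library log2 values used a pseudocount of 0.5. The element test was also run on simulated data, with RNA counts drawn from the spread that the same fit had estimated. That run checks the code only, and no result here rests on it. Alternatives used DESeq2 1.42.0 and limma 3.58.1. Tables were made with pandas 2.3.3, and scipy 1.17.1 gave the intervals. These are exact (Clopper-Pearson).

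Genes, start sites and tests were chosen with earlier results of these data known. Elements described per library were those called, the 6 highest and the 6 lowest with at least 5 barcodes, and both at PSMB1. PSMC3, PSMC6, PSMB7, PSMA2 and PSMA3 were added after their values were seen. No human genome or annotation was used here, so element sequences, motifs, exon or intron positions and other genes of the pathway were not analysed here.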

Additional observations from a re-analysis of the deposited data

How the results depend on the processing

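Most settings changed 1 choice, while DESeq2 changed the scaling and the test together, and equal weights for barcodes came with limma in place of edgeR. In 1 setting, RNA counts of 1 to 4 per barcode were taken as 0. The number of proteasome elements above the centre was 5 as reported and stayed within 1.5 times of it except in limma-voom, with 9 (511 of 3378 elements in all), and with barcodes weighted equally in limma, with 10 (488 in all); the cause was not tested. The gains were PSMA2, PSMA3, PSMA4 and PSMA6 in limma-voom and PSMA3, PSMA4, PSMA6, PSMB2 and PSMD4 with equal weights. Leaving out each RNA replicate in turn gave 4 to 5. PSMD11, PSMB6, PSMD7 and PSMC2 were called in all 12 settings. PSMC4 was not called with library totals (log2 2.20), with low RNA counts at 0 (2.48) or without RNA replicate 2 (2.54), and had too few barcodes for the filter of at least 5. The number called over all elements was 169 with library totals, 115 with low RNA counts at 0, 193 without RNA replicate 2 and 300 as reported. Below the centre edgeR called 50 with library totals, 7 with low RNA counts at 0 and 3 without RNA replicate 1, and none of these was among the 21.

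The median log2 ratio of the 21 elements, 1.19, was 0.46 with library totals and 0.45 with low RNA counts at 0. These settings moved the median of all elements to -0.77 and -0.85, so the distance between the medians was 1.22 and 1.31, against 1.22 as reported. The distance was smaller with at least 5 barcodes (0.93) and without RNA replicate 3 (0.97), and larger in limma-voom (1.45). The median log2 ratio itself was 0.89 for the 14 elements with at least 5 barcodes. It was 0.92 within 1 kb of the listed start site, which drops the second PSMB1 element. Without each RNA replicate the median of the 21 was 0.93 to 1.14. Of the 14 elements that the naming rule took, signs turned for these: PSMA5 to -0.51, the first PSMB1 element to -0.27 and PSMB3 to -0.29 with library totals; -0.50, -0.36 and -0.22 with low RNA counts at 0. For PSMB3, the values without each RNA replicate ran from -0.16 (without replicate 2) to 0.67. No paired analysis was possible because the plasmid DNA has 1 library and no replicate number in the labels.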
